A study of Mus musculus with 33 samples.

Results

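The 41 genes described here encode proteins of meiosis, of the piRNA pathway and of other germ cell functions in the mouse, and they were followed through the reprogramming of fibroblasts to induced pluripotent stem (iPS) cells. They were taken as a list of symbols, all 41 of which were found among the 37583 gene identifiers counted in each library. By their known role, 19 were placed in meiosis, 14 in the piRNA pathway and 8 among other germ cell genes. The question was when each gene first rose, and in which of 2 sorted cell fractions.

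Poly-A RNA from mouse cells of strain 129SV/Jae/C57BL6J was sequenced in 33 libraries, 3 for each of 11 groups. The starting group was mouse embryonic fibroblasts (MEFs) in MEF media, and the other 10 groups came from a reprogramming culture in ES media to which dox and AA were added, with no word on whether iPS cells were still in it. These 10 were d3, d6, d9 and d12 of reprogramming and the iPS stage, each sorted by FACS into an SSEA1- and an SSEA1+ fraction (SSEA1 is a cell surface carbohydrate antigen of early embryonic and pluripotent cells). The labels call all 10 sorted groups reprogramming intermediates. How the reprogramming factors were carried, the ages of the embryos and the number of iPS clones are not given in the sources used here. The labels do not state whether the 3 libraries of a group are separate cultures or animals. A p-value here speaks only to the spread among libraries within groups, which may be technical. That spread was estimated jointly over all 11 groups, so it is not the spread of the compared groups alone.

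In the germ line, meiosis pairs homologous chromosomes along a protein axis of cohesin and HORMA domain proteins, joins them by the synaptonemal complex and recombines them at programmed breaks. PIWI-interacting RNAs (piRNAs) are small RNAs that guide PIWI proteins to silence transposons; their precursors are cut at mitochondria and handled in granules held together by Tudor domain proteins. Many genes of both systems have CpG-rich promoters that are methylated and silent in somatic cells, and they are also held silent by a Polycomb complex, PRC1.6, that contains E2F6 and the MAX and MGA proteins.

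The libraries held 8927873 to 41690795 counts in genes, so that 3 counts, the floor used here for a gene with no read, correspond to 0.336 to 0.072 CPM (counts scaled to the size of the library). Levels are CPM after TMM scaling, and counting limits cover counting error only. Summed over 12 fibroblast marker genes, the 3 MEF libraries gave 96900 to 131000 CPM and the 3 iPS SSEA1+ libraries 1240 to 2670 CPM. Summed over 12 pluripotency genes, the same groups gave 73.1 to 91.0 and 5150 to 7450 CPM. The iPS SSEA1- fraction lay apart from its label as an iPS stage on both lists, with 19100 to 34900 CPM of fibroblast markers. Its pluripotency sum was 174 and 478 CPM in replicates 1 and 2 and 2870 CPM in replicate 3. Replicate 3 correlated with the other libraries of its group at 0.905 and 0.907 (Pearson's r of log2 levels across genes, which are not independent replicates), the lowest among all replicate pairs, which reached 0.991. Counts and medians that rest on this group are given with and without replicate 3. In bulk RNA, fewer cells that express a gene and less RNA per cell cannot be told apart.

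The promoters of 6 members are shown because the levels of these genes carry the results that follow and because they show where a pair of searched motifs lies in those that hold them. They are not typical of the 41 genes, most of which do not hold both motifs. Each is 300 bases, from 250 before to 50 after the annotated start, read 5′ to 3′ on the gene's strand from RefSeq on GRCm38.p6. Capitals mark CACGTG, the E-box read by MAX with MGA, and GCGGGA or its reverse complement TCCCGC, a site of the E2F6 type. Both strands were searched, CACGTG is its own reverse complement, and the 2 motifs can share at most 1 base. The counting files use another build, mm9, so these coordinates apply to GRCm38 alone.
Hormad1, axis protein, chr3:95559427-95559726, plus strand: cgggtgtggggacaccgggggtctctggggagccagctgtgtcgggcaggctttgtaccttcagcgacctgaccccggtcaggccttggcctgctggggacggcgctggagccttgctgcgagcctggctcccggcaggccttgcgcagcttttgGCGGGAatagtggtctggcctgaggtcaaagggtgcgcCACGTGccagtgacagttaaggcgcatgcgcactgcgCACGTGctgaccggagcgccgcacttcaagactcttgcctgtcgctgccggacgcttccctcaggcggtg
Stag3, cohesin subunit, chr5:138280259-138280558, plus strand: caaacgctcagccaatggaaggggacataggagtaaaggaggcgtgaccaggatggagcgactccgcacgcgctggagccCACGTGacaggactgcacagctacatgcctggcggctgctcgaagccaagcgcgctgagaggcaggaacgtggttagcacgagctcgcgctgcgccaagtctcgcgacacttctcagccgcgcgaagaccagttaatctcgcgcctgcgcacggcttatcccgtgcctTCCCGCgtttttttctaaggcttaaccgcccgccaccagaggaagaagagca
Rec8, cohesin subunit, chr14:55617916-55618215, plus strand: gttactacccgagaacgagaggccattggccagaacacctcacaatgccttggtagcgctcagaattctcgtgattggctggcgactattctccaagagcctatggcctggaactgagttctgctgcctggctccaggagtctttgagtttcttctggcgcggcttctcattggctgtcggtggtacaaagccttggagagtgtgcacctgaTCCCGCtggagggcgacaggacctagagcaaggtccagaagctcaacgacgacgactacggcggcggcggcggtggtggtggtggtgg
Mael, piRNA pathway, chr1:166238695-166238994, minus strand: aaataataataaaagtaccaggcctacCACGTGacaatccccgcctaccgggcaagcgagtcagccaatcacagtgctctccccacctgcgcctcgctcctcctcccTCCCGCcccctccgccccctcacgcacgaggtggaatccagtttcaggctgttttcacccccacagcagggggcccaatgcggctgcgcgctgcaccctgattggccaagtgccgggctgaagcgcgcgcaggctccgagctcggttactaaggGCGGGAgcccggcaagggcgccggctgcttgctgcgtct
Ddx4, piRNA pathway helicase, chr13:112652261-112652560, minus strand: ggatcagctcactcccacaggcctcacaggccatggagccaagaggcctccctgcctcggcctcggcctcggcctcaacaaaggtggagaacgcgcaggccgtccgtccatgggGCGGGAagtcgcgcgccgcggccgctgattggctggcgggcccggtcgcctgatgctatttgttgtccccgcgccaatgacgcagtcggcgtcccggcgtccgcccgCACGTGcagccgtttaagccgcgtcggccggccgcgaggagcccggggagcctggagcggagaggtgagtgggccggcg
Dazl, germ cell RNA-binding protein, chr17:50293571-50293870, minus strand: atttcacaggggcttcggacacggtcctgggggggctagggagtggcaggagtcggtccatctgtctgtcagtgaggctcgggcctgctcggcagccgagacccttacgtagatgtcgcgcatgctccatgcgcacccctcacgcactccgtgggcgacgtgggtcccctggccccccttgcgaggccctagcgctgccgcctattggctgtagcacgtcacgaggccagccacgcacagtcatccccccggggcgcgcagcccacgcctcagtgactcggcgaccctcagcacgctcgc

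These windows held 24 CpG dinucleotides at Hormad1, 30 at Stag3, 18 at Rec8, 24 at Mael, 38 at Ddx4 and 28 at Dazl. Hormad1, Stag3, Mael and Ddx4 held both motifs, Rec8 only GCGGGA and Dazl neither. A match describes letters in the window and is neither a bound site nor a cause. Of the 41 members, 36 had an entry in the promoter table, with 46 promoters in all, and Tex11, Tex15, Tdrd6, Piwil2 and Spo11 had none. A gene with several annotated starts counts once per start, and Hormad1 has 2 that are nearly the same, of which the first is shown. CACGTG was in 43.5% of the member promoters and in 7.2% of all 32851 promoters in the table. GCGGGA was in 41.3% of member promoters against 20.0% of all, and both motifs were in 19.6% against 2.0%. The median number of CpG dinucleotides was 20.5 in member promoters and 7 in all. Among promoters with at least 15 CpG dinucleotides, CACGTG was in 51.4% of member promoters and 11.3% of all, while GCGGGA was in 51.4% and 45.4%. GCGGGA was in 72.2% of the promoters of meiosis genes and 15.8% of those of piRNA genes, while CACGTG was in 33.3% and 47.4%. Promoters of the other germ cell genes held GCGGGA in 33.3% and CACGTG in 55.6%.

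As a sum, the germline genes were low in MEFs and at their highest in iPS SSEA1+ cells. The summed level of all 41 members was 76.2, 76.1 and 65.7 CPM in the 3 MEF libraries. Of this the piRNA class gave 52.5, 52.3 and 46.2 CPM, most of it from Tdrd7 and Tdrkh, which were lower in iPS SSEA1+ cells. In the SSEA1+ fraction the sum of all members was 58.8, 92.5 and 70.3 CPM at d3, 173, 135 and 121 CPM at d6, and 185, 162 and 158 CPM at d9. At d12 it was 475, 385 and 358 CPM, and in iPS SSEA1+ cells 1380, 1080 and 995 CPM. From d6 on each SSEA1+ library lay above all MEF libraries, and the d12 and iPS libraries lay above all earlier SSEA1+ ones. At d6 this rested on Rec8: without that gene the sums were 59.3, 91.7 and 102 CPM at d6 and 75.8, 75.7 and 65.5 CPM in MEFs, which overlap. At d9 they were 113, 126 and 132 CPM without Rec8, still above all MEF libraries. In the SSEA1- fraction the sum was 204, 169 and 190 CPM at d12 and 176, 171 and 439 CPM at the iPS stage, where replicate 3 stood apart. The other germ cell class was the lowest of the 3 in every library up to d12, with 3.43, 2.79 and 3.48 CPM in MEFs and 6.55, 5.49 and 6.32 CPM in d9 SSEA1+ cells. It then reached 105, 63.0 and 48.5 CPM at d12 and 385, 176 and 207 CPM in iPS SSEA1+ cells.

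**Figure D1:**
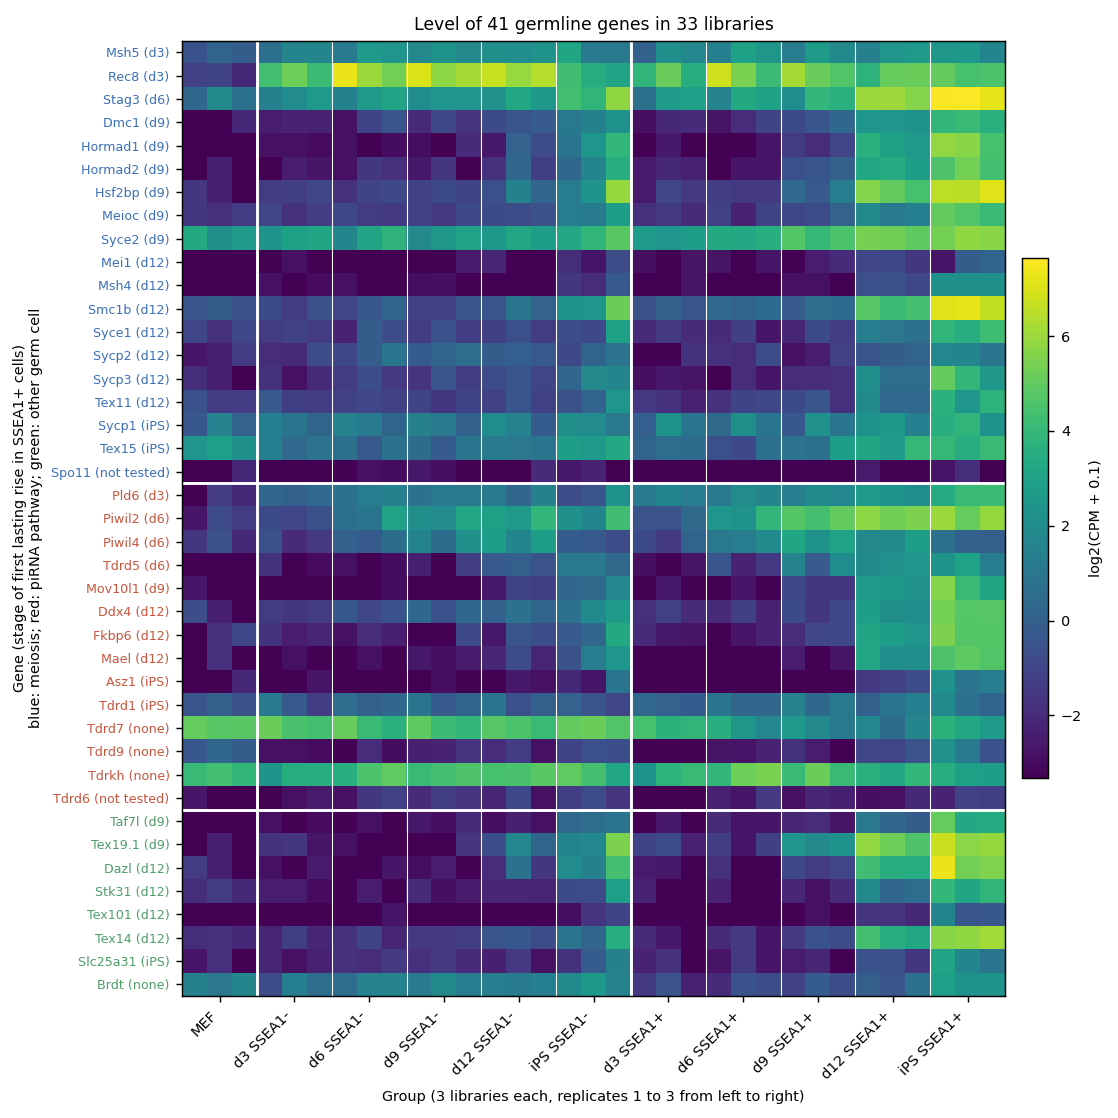
Level of each of the 41 genes (rows, with the stage of the first lasting rise in SSEA1+ cells in brackets) in each of the 33 libraries (columns, 3 per group), as log2(CPM + 0.1) on a colour scale. Most rows are dark until d9 and bright at d12 and in iPS SSEA1+ cells, while Rec8 is bright from d3 and Tdrd7 darkens in the SSEA1+ columns.

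**Figure D2:**
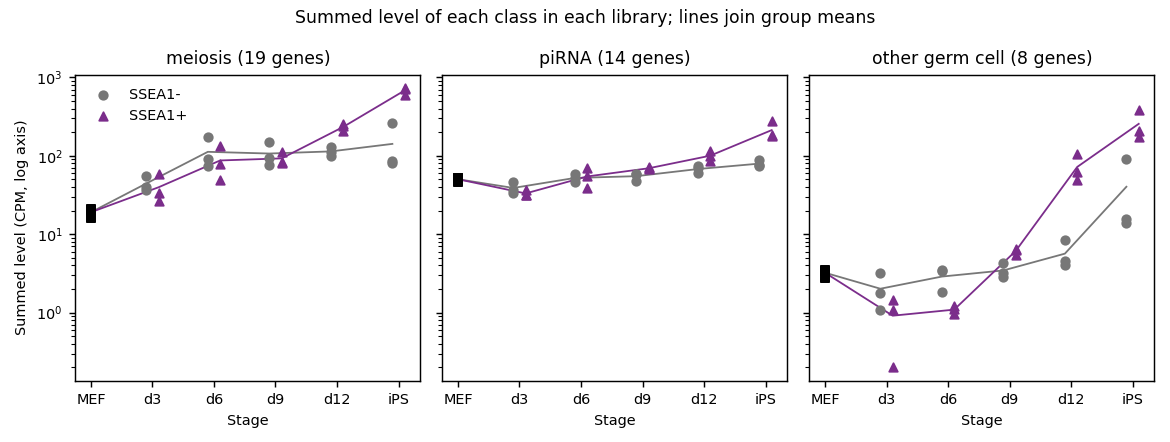
Summed level of the meiosis, piRNA and other germ cell genes in each library (points, CPM on a log axis) by stage and fraction. The other germ cell genes lie between 2.79 and 3.48 CPM in MEFs and between 176 and 385 CPM in iPS SSEA1+ cells.

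Of the 41 members, 39 passed the filter on low counts and were tested. The 2 that did not were Tdrd6, a Tudor protein of the chromatoid body with at most 13 reads in a library, and Spo11, the enzyme that makes meiotic breaks, with at most 4. A gene was called when its adjusted p (edgeR's quasi-likelihood test, Benjamini-Hochberg over all 17326 genes tested) was under 0.05 and its change was at least 2-fold. All comparisons with MEFs share the 3 MEF libraries. Against MEFs, 35 members were higher in iPS SSEA1+ cells, where 27.9% of all tested genes were called higher, and 2 were lower, against 22.5%. The members' median log2 fold change was 6.34, with genes that had no read in MEFs set at their lower bound (6.86 as fitted), and that of all tested genes was 0.22. At d12, 30 members were higher in SSEA1+ cells (26.5% of all genes) and 2 lower (20.2%), with a median of 3.83 at the bound and 4.82 as fitted. At d9, 17 were higher (20.6%) and 3 lower (18.0%), with a median of 1.32 at the bound, and without MEF replicate 2 the number higher was 11. At d6, 7 were higher (16.9%) and 4 lower (16.6%), and at d3, 3 were higher (15.6%) and 3 lower (16.7%), so at both days the members' shares lay near or under those of all genes. The 2 lower members became 1 at d12 without MEF replicate 1 or 3 or d12 SSEA1+ replicate 1 or 2, and 1 at the iPS stage without any one MEF library or iPS SSEA1+ replicate 2 or 3.

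In the SSEA1- fraction the number of members called higher stayed at 15 or fewer until d12. Against MEFs, 3 members were higher in d3 SSEA1- cells (15.3% of all tested genes), 7 at d6 (15.8%), 8 at d9 (14.9%) and 15 at d12 (17.0%), so that at d3 and d6 the members' shares lay near or under those of all genes. The number at d6 was 4 without d6 SSEA1- replicate 3. At each of these 4 days 2 members were lower, Tex15 and Tdrd9 (14.9%, 12.4%, 11.6% and 11.1% of all genes). The 2 became 1 without d3 SSEA1- replicate 2 at d3, without d9 SSEA1- replicate 1 at d9 and without d12 SSEA1- replicate 2 at d12, and 0 at d12 without MEF replicate 2 or d12 SSEA1- replicate 3. In iPS SSEA1- cells 31 members were higher (19.1%), or 20 when only the 2 groups compared were fitted. Without replicate 3 the number was 23, among them Tdrd6, which passed the filter in that fit but not with all libraries. No member was lower in iPS SSEA1- cells by edgeR (7.70% of all genes), with 0 at an unadjusted p under 0.05 and 0 by DESeq2. The median log2 fold change of the members in iPS SSEA1- cells was 3.93 at the bound, against 0.19 for all tested genes, and 2.56 without replicate 3, against 0.17.

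The day of the first lasting rise, the earliest stage from which a gene was called higher than in MEFs at that and all later stages, is given here by class. In SSEA1+ cells it was d3 for 3 genes, d6 for 4, d9 for 9, d12 for 14 and the iPS stage for 5, with 4 that had no lasting rise. Rec8 and Msh5 of the meiosis class and Pld6 of the piRNA class rose at d3. Stag3 of the meiosis class and the piRNA genes Tdrd5, Piwil2 and Piwil4 rose at d6. Of the 18 meiosis genes tested, 6 rose at d9 (Syce2, Hormad1, Hormad2, Dmc1, Meioc and Hsf2bp), 7 at d12 (Sycp2, Sycp3, Syce1, Smc1b, Tex11, Msh4 and Mei1) and 2 at the iPS stage (Sycp1 and Tex15). Of the 13 piRNA genes tested, Mov10l1 rose at d9, Ddx4, Mael and Fkbp6 at d12, and Tdrd1 and Asz1 at the iPS stage. Tdrd1 was also called higher at d9, but not at d12. Of the 8 other germ cell genes, Tex19.1 and Taf7l rose at d9, Dazl, Tex101, Tex14 and Stk31 at d12, and Slc25a31 at the iPS stage. Tdrd7, Tdrd9, Tdrkh and Brdt had no lasting rise. In SSEA1- cells the first lasting rise was d3 for 3 genes, d6 for 3, d9 for 1, d12 for 7 and the iPS stage for 17. Without iPS SSEA1- replicate 3 it was d12 for 9 and the iPS stage for 6, with the other days as before, and 9 genes lost their rise: Syce1, Syce2, Tex11, Mei1, Asz1, Fkbp6, Tex101, Slc25a31 and Stk31. By the calls against MEFs, Ddx4 rose at d9 and Sycp2 and Dmc1 at d6 in SSEA1- cells, each at an earlier day than in SSEA1+ cells. Tested between the fractions without a replicate block, Ddx4 at d9 and Dmc1 at d6 and d9 were not called. Sycp2 was called between the fractions at d9. Piwil4 was called higher in SSEA1- cells at d6, d9 and d12 but not at the iPS stage. Single days depend on the threshold: the call of Stag3 at d6 SSEA1+ had an adjusted p of 0.058 without the filter on low counts, and Taf7l at d9 had an adjusted p of 0.11 by DESeq2.

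Among the cohesin genes, Stag3 and Smc1b climbed to high levels late in SSEA1+ cells. Rec8 rose first and, in SSEA1- cells, did not stay at its peak. Stag3 (ENSMUSG00000036928), a meiotic cohesin subunit, was at 1.22, 3.53 and 1.67 CPM in MEFs and at 2.79, 10.1 and 7.66 CPM in d6, 62.7, 66 and 50.7 CPM in d12 and 188, 199 and 151 CPM in iPS SSEA1+ cells. The d6 libraries overlapped those of MEFs, and the d12 and iPS libraries lay above them. Its change from MEFs to iPS SSEA1+ cells was 6.40 ± 0.71 on the log2 scale (adjusted p = 2.7e-08); values after ± beside log2 fold changes are standard errors. Smc1b (ENSMUSG00000022432), the meiosis-specific SMC subunit, was at 0.639, 0.837 and 0.557 CPM in MEFs and 0.787, 1.47 and 1.34 CPM in d9 SSEA1+ cells. It was at 27.6, 16.8 and 20.9 CPM at d12 and 139, 150 and 99.2 CPM in iPS SSEA1+ cells, with no overlap between these 2 groups and the earlier ones. Its change from d9 to d12 in SSEA1+ cells was 4.18 ± 0.58 on the log2 scale (adjusted p = 1.0e-04), and from d12 to iPS SSEA1+ 2.57 ± 0.52 on the log2 scale (adjusted p = 0.0015).

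Rec8 (ENSMUSG00000002324), the meiotic kleisin that closes the cohesin ring, had another course. It was at 0.349, 0.372 and 0.139 CPM in MEFs, and within 3 days at 19.7, 36.6 and 17.4 CPM in SSEA1- and 14.2, 34.7 and 11.3 CPM in SSEA1+ cells. The d3 changes were 6.29 ± 0.86 on the log2 scale (adjusted p = 3.2e-06) for SSEA1- and 5.99 ± 0.86 on the log2 scale (adjusted p = 3.6e-06) for SSEA1+ cells. The SSEA1- libraries were at 159, 62.5 and 39.1 CPM at d6 and 105, 62.4 and 86.4 CPM at d12, and replicate 1 was the highest of its group at both days. In iPS SSEA1- cells Rec8 was at 19.5, 11.4 and 8.42 CPM, all under each d12 SSEA1- library. That fall was -2.69 ± 0.61 on the log2 scale (adjusted p = 0.0063), and -2.52 with adjusted p = 0.028 without iPS SSEA1- replicate 3. In d12 SSEA1+ cells it was at 13.6, 34.1 and 36.2 CPM, lower than in d12 SSEA1- cells (log2 fold change -1.60 ± 0.58, adjusted p = 0.024). This call was lost without d12 SSEA1- replicate 1 (-1.46, adjusted p = 0.068) or d12 SSEA1+ replicate 1 (-1.27, adjusted p = 0.12). No other tested member of the meiosis class was lower in the SSEA1+ fraction at d12. From one SSEA1+ stage to the next, Rec8 was not called lower at any step.

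The genes of the synaptonemal complex and the chromosome axis were spread over 3 stages in SSEA1+ cells. In SSEA1- cells Sycp2 was called higher from d6 on. Syce2 (ENSMUSG00000003824), of the central element, was already present in MEFs at 9.94, 4.28 and 5.84 CPM. In SSEA1+ cells it was at 25.9, 15.8 and 23.3 CPM at d9 and 40.2, 57.1 and 51.3 CPM at the iPS stage, above all MEF libraries (log2 fold change 1.68 ± 0.42, adjusted p = 0.0016 and log2 fold change 2.87 ± 0.44, adjusted p = 3.3e-06). Its partner in the central element, Syce1, rose at d12 and was at 14.3, 11.2 and 18.6 CPM in iPS SSEA1+ cells (log2 fold change 5.43 ± 0.89, adjusted p = 9.6e-06). Sycp1, the transverse filament, was at 0.697, 2.79 and 0.974 CPM in MEFs and 12.1, 14.4 and 4.88 CPM in iPS SSEA1+ cells, the first stage at which it was called (log2 fold change 2.81 ± 0.75, adjusted p = 0.0021). Sycp3, of the lateral element, reached 4.29, 1.45 and 1.4 CPM in d12 and 31.8, 15.3 and 5.45 CPM in iPS SSEA1+ cells, with replicate 1 the highest of both groups (log2 fold change 4.41 ± 0.83, adjusted p = 7.1e-05 and log2 fold change 7.28 ± 0.87, adjusted p = 9.2e-08). By annotation 52.2% of the exon length of Sycp3 is shared with Chpt1 on the opposite strand. The file names point to counting that ignored strand, in which case reads from the shared part cannot be assigned to 1 of the 2 genes. Reads classed as ambiguous are not in the gene counts.

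Hormad1 (ENSMUSG00000028109), which marks unsynapsed axes, had no read in MEFs. It was at 0.29, 0.164 and 0.383 CPM in d9, 12.3, 7.53 and 5.78 CPM in d12 and 57.5, 50.9 and 21.9 CPM in iPS SSEA1+ cells, and each group lay above the one before it. Against the MEF floor of 0.0853 CPM (3 counts over the group), this was at least 3.27-fold, at least 100-fold and at least 509-fold higher. The d9 call was lost without MEF replicate 1 (adjusted p = 0.087) or MEF replicate 2 (adjusted p = 0.06). Its paralogue Hormad2 had 1 read in MEFs and was at 23.7, 41 and 20.4 CPM in iPS SSEA1+ cells (989-fold, 95% counting interval 177 to 39100, adjusted p = 7.8e-08). Sycp2, the partner of Sycp3 in the lateral element, went the other way between the fractions at d9. It was at 0.812, 1.03 and 1.4 CPM in SSEA1- and 0.0414, 0.0819 and 0.335 CPM in SSEA1+ cells, without overlap (log2 fold change -2.80 ± 0.81, adjusted p = 0.0079). In iPS SSEA1+ cells Sycp2 was at 3.4, 3.18 and 1.89 CPM.

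In SSEA1+ cells the tested recombination genes first rose at d9 or d12, apart from Msh5, which rose at d3, and Tex15, which first fell. In SSEA1- cells Dmc1 was called higher from d6 on and Hsf2bp from d12 on, while Msh4, Mei1 and Meioc were first called at the iPS stage, Mei1 not without replicate 3. Hsf2bp (ENSMUSG00000002076), a partner of BRCA2 in meiotic recombination, was at 0.232, 0.093 and 0 CPM in MEFs and 1.24, 0.737 and 2.3 CPM in d9 SSEA1+ cells. It was then at 50.1, 32.1 and 22 CPM at d12 and 92.6, 90.4 and 137 CPM in iPS SSEA1+ cells. The step from d9 to d12 was 4.61 ± 0.81 on the log2 scale (adjusted p = 7.7e-04). In iPS SSEA1- cells Hsf2bp was at 2.3, 4.98 and 59 CPM, with replicate 3 far above the other replicates. Dmc1 (ENSMUSG00000022429), the strand-exchange recombinase of meiosis, had 1 read in MEFs and was at 5.2, 5.31 and 4.76 CPM in d12 and 14.7, 16.9 and 12.4 CPM in iPS SSEA1+ cells (514-fold, counting interval 92 to 20300, adjusted p = 2.4e-08). Msh4 had no read in MEFs or d12 SSEA1- cells and was at 0.546, 0.553 and 0.42 CPM in d12 and 4.41, 4.4 and 4.46 CPM in iPS SSEA1+ cells, at least 51.8-fold above the MEF floor.

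Msh5, which forms a crossover complex with Msh4, was at 0.581, 1.02 and 0.835 CPM in MEFs and 0.972, 4.31 and 3.27 CPM in d3 SSEA1+ cells, where replicate 1 overlapped the MEF range (log2 fold change 1.81 ± 0.62, adjusted p = 0.018). When only the 2 groups compared were fitted, its adjusted p at d3 was 0.057, and it was 0.11 without MEF replicate 1, 0.063 without MEF replicate 3 and 0.1 without d3 SSEA1+ replicate 2. Meioc (ENSMUSG00000051455), which holds meiotic prophase on course, was at 0.232, 0.186 and 0.278 CPM in MEFs, 3.71, 2.04 and 2.57 CPM in d12 and 32.2, 25.5 and 17.1 CPM in iPS SSEA1+ cells (log2 fold change 6.73 ± 0.57, adjusted p = 2.9e-10). Mei1, needed for break formation, had no read in MEFs, and its iPS SSEA1+ libraries were unequal at 0.0531, 0.836 and 1.05 CPM. Tex11, an X-linked crossover gene, was at 0.581, 0.279 and 0.278 CPM in MEFs and 12.6, 5.13 and 13.4 CPM in iPS SSEA1+ cells (log2 fold change 4.69 ± 0.74, adjusted p = 5.8e-06). Tex15 was at 5.17, 7.16 and 4.45 CPM in MEFs and 0.548, 0.427 and 1.48 CPM in d6 SSEA1+ cells, lower in each library (log2 fold change -2.77 ± 0.54, adjusted p = 1.7e-04). It was at 15.5, 11.4 and 16.9 CPM in iPS SSEA1+ cells, higher than in MEFs (log2 fold change 1.38 ± 0.50, adjusted p = 0.018). The iPS call of Tex15 was lost without MEF replicate 1 or 3 (adjusted p = 0.064 and 0.076) or iPS SSEA1+ replicate 1 or 3 (0.051 and 0.066).

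In the piRNA pathway, the PIWI genes and the mitochondrial nuclease came first, and the helicases and most Tudor genes came later or fell. Piwil2 (ENSMUSG00000033644), the PIWI protein MILI, was at 0.0581, 0.465 and 0.278 CPM in MEFs. In SSEA1+ cells it was at 5.13, 4.81 and 15.2 CPM at d6, 26.2, 21 and 32 CPM at d9, 54.8, 38.4 and 44.1 CPM at d12 and 63.5, 33.2 and 59 CPM at the iPS stage. The d6 libraries lay above all MEF libraries (log2 fold change 5.10 ± 0.88, adjusted p = 3.5e-05), and the iPS libraries overlapped those of d12. In SSEA1- cells Piwil2 was at 7.47, 5.9 and 14.9 CPM at d12, under each d12 SSEA1+ library (log2 fold change 2.28 ± 0.63, adjusted p = 0.0038). Piwil4 (ENSMUSG00000036912), the nuclear PIWI protein MIWI2, was at 0.232, 0.558 and 0.139 CPM in MEFs and 8.91, 4.75 and 7.75 CPM in d9 SSEA1+ cells (log2 fold change 4.48 ± 0.63, adjusted p = 1.9e-06). It was then at 3.46, 3.57 and 6.67 CPM at d12 and 1.54, 0.947 and 0.892 CPM in iPS SSEA1+ cells, a fall of 2.01 ± 0.53 on the log2 scale (adjusted p = 0.012). The fall was not called without d12 SSEA1+ replicate 3 (-1.64, adjusted p = 0.085) or iPS SSEA1+ replicate 2 or 3 (adjusted p = 0.055 and 0.06). In SSEA1- cells it was at 6.83, 3.13 and 6.68 CPM at d12 and 0.823, 0.75 and 0.484 CPM at the iPS stage (log2 fold change -3.01 ± 0.55, adjusted p = 0.0013), again without overlap, and the fall was -2.87 with adjusted p = 0.0071 without iPS SSEA1- replicate 3.

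Pld6 (ENSMUSG00000043648), the mitochondrial nuclease homologous to Zucchini, was at 0, 0.279 and 0.139 CPM in MEFs and 2.24, 2.98 and 2.35 CPM in d3 SSEA1+ cells (log2 fold change 4.31 ± 0.81, adjusted p = 1.0e-04). It was at 6.22, 4.97 and 3.97 CPM at d12 and 10.7, 16.4 and 17.4 CPM in iPS SSEA1+ cells. Asz1, a mitochondrial membrane protein of the pathway, had 1 read in MEFs and no read in d3, d6 or d9 SSEA1+ cells, and was at 4.57, 1.78 and 2.31 CPM in iPS SSEA1+ cells (102-fold, counting interval 18 to 4050, adjusted p = 8.1e-04). Mov10l1 (ENSMUSG00000015365), the helicase that feeds piRNA precursors, was at 0.414, 0.246 and 0.239 CPM in d9, 6.19, 5.61 and 4.62 CPM in d12 and 47.9, 16.5 and 8.71 CPM in iPS SSEA1+ cells. It had 1 read in MEFs (859-fold, counting interval 154 to 33900, adjusted p = 8.3e-08), and iPS replicate 1 was the highest library. Tdrkh, which anchors the machinery at mitochondria, was at 17.1, 20.6 and 15.3 CPM in MEFs and 11.2, 7.35 and 6.82 CPM in iPS SSEA1+ cells, lower in each library (log2 fold change -1.07 ± 0.47, adjusted p = 0.049). This call was lost without the filter on low counts (adjusted p = 0.051) and without any one MEF library or iPS SSEA1+ replicate 2 or 3 (adjusted p = 0.057 to 0.12), and 36.7% of the exon length of Tdrkh is shared with Oaz3 on the opposite strand.

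Ddx4 (ENSMUSG00000021758), the mouse homologue of the germ cell helicase vasa, was at 0.523, 0.093 and 0 CPM in MEFs, 0.456, 0.246 and 0.431 CPM in d9, 6.77, 4.12 and 3.97 CPM in d12 and 40.4, 26.9 and 27.6 CPM in iPS SSEA1+ cells. The d9 libraries overlapped those of MEFs, and the later groups lay apart from each other and from all earlier ones. The step to d12 was 3.70 ± 0.57 on the log2 scale (adjusted p = 2.5e-04) and that to iPS SSEA1+ cells 2.67 ± 0.51 on the log2 scale (adjusted p = 9.1e-04). Mael (ENSMUSG00000040629), which acts in piRNA-guided transposon silencing, had 2 reads in MEFs, and no read in d3 or d6 SSEA1+ cells. It was at 9.17, 4 and 4.06 CPM in d12 and 24.1, 29.9 and 25 CPM in iPS SSEA1+ cells (462-fold, counting interval 128 to 3820, adjusted p = 3.8e-07). Fkbp6, a co-chaperone of piRNA loading, was at 0, 0.186 and 0.417 CPM in MEFs, 8.59, 7.06 and 5.22 CPM in d12 and 44.8, 25.9 and 25.9 CPM in iPS SSEA1+ cells (log2 fold change 7.61 ± 1.20, adjusted p = 5.4e-06).

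The Tudor genes did not move as a group. Tdrd5 had no read in MEFs and was at 0.648, 0.107 and 0.264 CPM in d6, 2.86, 0.778 and 3.92 CPM in d9 and 5.05, 8.08 and 2.31 CPM in iPS SSEA1+ cells, at least 3.98-fold, at least 29.5-fold and at least 60.3-fold above the MEF floor. Tdrd7 (ENSMUSG00000035517), of the chromatoid body and also of other tissues such as the lens, was at 33.1, 27.7 and 28.4 CPM in MEFs, and in SSEA1+ cells at 11.9, 5.5 and 3.27 CPM at d6 and 3.35, 1.36 and 3.08 CPM at d12. It was lower than in MEFs in each of these libraries (log2 fold change -2.11 ± 0.46, adjusted p = 4.5e-04 and log2 fold change -3.51 ± 0.49, adjusted p = 1.1e-06). In SSEA1- cells it was at 27.5, 22.8 and 17.3 CPM at d12, and the difference between the fractions was -3.11 ± 0.48 on the log2 scale (adjusted p = 1.2e-05). In iPS SSEA1+ cells Tdrd7 was at 13.2, 9.42 and 6.19 CPM, higher than at d12 (log2 fold change 1.88 ± 0.46, adjusted p = 0.0072; 1.56 and 0.06 without d12 SSEA1+ replicate 2) and under the 31.6, 35.6 and 25.5 CPM of iPS SSEA1- cells. Tdrd9, the helicase that works with MIWI2, was at 0.697, 1.21 and 0.835 CPM in MEFs and had no read in d3 SSEA1+ cells, whose floor is 0.0489 CPM. It was at 4.62, 2.12 and 0.577 CPM in iPS SSEA1+ cells, where replicate 3 was under the MEF libraries and the gene was not called against MEFs. Tdrd1, the scaffold of piRNA granules, was at 0.639, 0.93 and 0.557 CPM in MEFs and 3.72, 1.5 and 1.05 CPM in iPS SSEA1+ cells (log2 fold change 1.55 ± 0.62, adjusted p = 0.033). The call of Tdrd1 was lost without iPS SSEA1+ replicate 1 (0.77, adjusted p = 0.32), MEF replicate 1 (adjusted p = 0.1) or MEF replicate 3 (adjusted p = 0.098), and without the filter on low counts (adjusted p = 0.065).

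**Figure D3:**
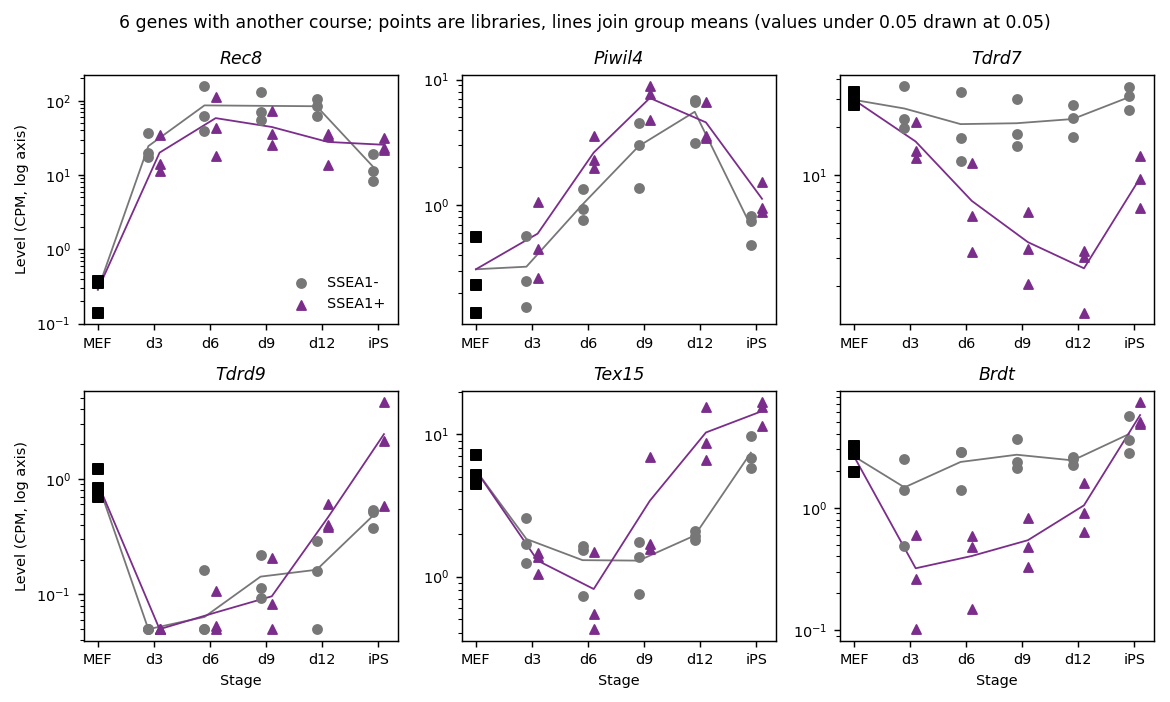
CPM (log axis, values under 0.05 drawn at 0.05) of Rec8, Piwil4, Tdrd7, Tdrd9, Tex15 and Brdt in each library by stage, with one colour per fraction. Rec8 and Piwil4 fall from d12 to the iPS stage in SSEA1- cells, Tdrd7 falls in SSEA1+ cells until d12, and Tex15 and Brdt have their lowest SSEA1+ libraries at d6 and d3.

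Among the other germ cell genes, Tex19.1, Dazl, Tex14 and Taf7l carried most of the late increase. Tex19.1 (ENSMUSG00000039329), which acts in germ cells and pluripotent cells and restrains retrotransposons, had 1 read in MEFs. It was at 5.22, 3.44 and 4.79 CPM in d9, 57.6, 36.8 and 24.1 CPM in d12 and 108, 52.8 and 59.9 CPM in iPS SSEA1+ cells, with the d12 and iPS groups overlapping. At d9 it was at 0, 0 and 0.22 CPM in SSEA1- cells, and the ratio of the fractions was 107-fold, counting interval 36.3 to 522, adjusted p = 2.2e-04. Dazl (ENSMUSG00000010592), a germ cell RNA-binding protein, was at 0.291, 0.093 and 0 CPM in MEFs and 0.414, 0.287 and 0.383 CPM in d9 SSEA1+ cells. It was at 19.1, 11.4 and 11 CPM at d12 and 159, 39.9 and 45.3 CPM in iPS SSEA1+ cells, of which replicate 1 was the highest (log2 fold change 5.24 ± 0.91, adjusted p = 7.0e-04 and log2 fold change 2.56 ± 0.75, adjusted p = 0.024 for the 2 steps). The step of Dazl from d12 was not called without iPS SSEA1+ replicate 1 (1.61, adjusted p = 0.21) or d12 SSEA1+ replicate 2 or 3 (adjusted p = 0.094 and 0.11). Tex14 (ENSMUSG00000010342), which builds the bridges between germ cells, was at 0.174, 0.186 and 0.139 CPM in MEFs, 20.9, 11.2 and 9.24 CPM in d12 and 51.1, 56.7 and 69.4 CPM in iPS SSEA1+ cells (log2 fold change 8.40 ± 0.83, adjusted p = 4.2e-09).

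Taf7l (ENSMUSG00000009596), a germ cell variant of a TFIID subunit, had no read in MEFs and was at 2, 1.11 and 0.84 CPM in d12 and 32.9, 9.64 and 10.2 CPM in iPS SSEA1+ cells, at least 15.4-fold and at least 206-fold above the MEF floor. Stk31, a Tudor protein of testis, was at 0.174, 0.279 and 0.139 CPM in MEFs and 15.4, 8.58 and 14.3 CPM in iPS SSEA1+ cells (log2 fold change 5.96 ± 1.05, adjusted p = 2.3e-05). Slc25a31, the ADP/ATP carrier of testis, had 3 reads in MEFs and was at 8.23, 3.12 and 1.78 CPM in iPS SSEA1+ cells (51.4-fold, counting interval 17.4 to 251, adjusted p = 5.6e-05). Tex101, a germ cell surface glycoprotein, had no read in MEFs and stayed low, at 2.97, 0.669 and 0.682 CPM in iPS SSEA1+ cells (at least 16.9-fold above the MEF floor). Brdt, a bromodomain protein of testis, was at 2.73, 1.95 and 3.2 CPM in MEFs and 0.262, 0.597 and 0.102 CPM in d3 SSEA1+ cells, lower in each library (log2 fold change -3.06 ± 0.61, adjusted p = 2.0e-04). It was at 7.28, 4.79 and 5.04 CPM in iPS SSEA1+ cells, which did not overlap the MEF libraries but was not called.

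Per kilobase of exon, the levels in iPS SSEA1+ cells ranged widely between members. The mean level was highest for Tex19.1, at 39.3 CPM per kilobase, followed by Smc1b at 32.0, Stag3 at 31.3, Hsf2bp at 29.8, Syce2 at 25.2 and Hormad1 at 25.1. At the other end, Piwil4 was at 0.209, Mei1 at 0.136, Tdrd6 at 0.0356 and Spo11 at 0.0187 CPM per kilobase. Members of one structure lay far apart, with the cohesin subunit Rec8 at 8.72 and the axis gene Sycp2 at 0.473 CPM per kilobase. In the 3 iPS SSEA1+ libraries Spo11 was at 0.0531, 0.167 and 0 CPM and Tdrd6 at 0.106, 0.334 and 0.315 CPM.

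The distance from the iPS level was taken for the 38 genes with at least 1 CPM in iPS SSEA1+ cells, each set against its own mean there. The median gene was at 0.9% of that level in MEFs, 0.7% at d3, 1.3% at d6, 3.3% at d9 and 22.9% at d12 in SSEA1+ cells. In iPS SSEA1- cells it was at 20.2%, and at 8.4% without replicate 3. At d9 the median was 21.6% for piRNA genes, 4.2% for meiosis genes and 0.9% for other germ cell genes. The piRNA class at d9 thus spanned the genes that were early (Piwil2, Piwil4, Pld6 and Tdrd5) and those still near 0 (Asz1 and Mael). It also held Tdrd7 and Tdrkh, which were higher in MEFs than in iPS SSEA1+ cells, and its highest gene in MEFs was at 309.5%. Such genes enter the class median without a rise.

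**Figure D4:**
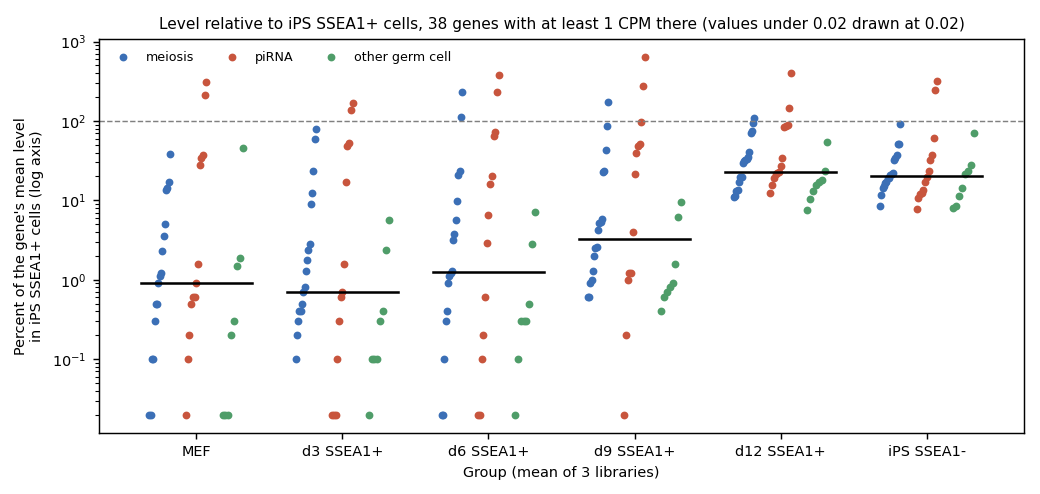
Mean level of each of 38 genes as a percentage of its mean in iPS SSEA1+ cells (log axis, values under 0.02% drawn at 0.02) in MEFs, the SSEA1+ groups and iPS SSEA1- cells, with black bars at the median over all 38. The median is 3.3% at d9 and 22.9% at d12, and the piRNA genes are the most spread at d9.

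From one SSEA1+ stage to the next, the largest number of members was called from d9 to d12. From d3 to d6, 2 members were higher, Piwil2 and Piwil4 (3.21% of all tested genes), and 0 lower (1.25%; 7 higher and 1 lower at an unadjusted p under 0.05, 0 lower by DESeq2). From d6 to d9, 1 was higher, Tex19.1 (0.998%), and 0 lower (0.0808%; 12 higher and 0 lower at an unadjusted p under 0.05, 0 lower by DESeq2). Same-numbered libraries deviated together in both of these steps, and with the replicate as a block only Tdrd7 was lower from d3 to d6, 1 member in all (log2 fold change -1.35, adjusted p = 0.0045), and Tdrkh was called higher (log2 fold change 1.46, adjusted p = 0.045). With that block 4 members were higher from d6 to d9, Piwil2 (log2 fold change 1.86, adjusted p = 0.016) and Tex15 (log2 fold change 1.99, adjusted p = 0.019) among them. Of the 2 rises from d3 to d6, 0 were called without d3 SSEA1+ replicate 1 and 1 without d3 SSEA1+ replicate 2 or d6 SSEA1+ replicate 3, while 1 member was lower without d6 SSEA1+ replicate 1. The rise of Tex19.1 from d6 to d9 was lost without any one library except d9 SSEA1+ replicate 2 (adjusted p = 0.065 to 0.19). The number higher in that step was 0 without d6 SSEA1+ replicate 1 or 2 or d9 SSEA1+ replicate 3, and 3 without d9 SSEA1+ replicate 2. From d9 to d12, 23 members were higher (5.37% of all tested genes): 13 of 18 meiosis genes, 5 of 13 piRNA genes and 5 of 8 other germ cell genes. None was lower by edgeR (3.45%), with 0 at an unadjusted p under 0.05 and 0 by DESeq2. The members' median log2 change was 2.61, against 0.03 for all tested genes. The 23 became 17 to 20 with single libraries left out. At an unadjusted p under 0.05 by edgeR, 26 were higher in this step and 27 from d12 to the iPS stage. From d12 to the iPS stage 18 were higher (3.74%), among them 7 meiosis, 5 piRNA and 6 other germ cell genes, and only Piwil4 was lower (5.75%). The 18 became 9 without d12 SSEA1+ replicate 2, 8 without d12 SSEA1+ replicate 3 and 11 without iPS SSEA1+ replicate 1. The fall of Piwil4 was not called without d12 SSEA1+ replicate 3 or iPS SSEA1+ replicate 2 or 3.

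Between the sorted fractions of one stage, few members differed at d3 and d6. At d9 8 were higher and 3 lower in SSEA1+ cells, and at d12 most differed. At d3, 0 were higher in SSEA1+ cells by edgeR (2.76% of all tested genes; 0 at an unadjusted p under 0.05 and 0 by DESeq2) and only Brdt was lower (3.91%). At d6 only Tdrd5 was higher (6.31%), and Tdrd7 and Brdt were lower (10.1%). Same-numbered fractions deviated together at d3, d6, d9 and d12, and with the replicate as a block the d6 numbers were 3 higher and 4 lower, with Piwil2 and Piwil4 among those higher (log2 fold change 1.25, adjusted p = 0.021, and log2 fold change 1.38, adjusted p = 0.023) and Sycp2 among those lower (log2 fold change -1.82, adjusted p = 0.022). The lower level of Brdt at d3 was not called without d3 SSEA1- replicate 2 or d3 SSEA1+ replicate 1 or 3 (adjusted p = 0.059 to 0.11), and the number lower was 0 without the first 2 of these. At d6 the number higher was 0 without d6 SSEA1+ replicate 1 and 2 without d6 SSEA1- replicate 3, and the number lower was 4 without d6 SSEA1+ replicate 2 and 1 without d6 SSEA1+ replicate 3. At d9, 8 were higher (11.5%), namely Tex19.1, Syce2, Hormad2, Tex15, Tdrd5, Piwil2, Piwil4 and Mov10l1, and Sycp2, Tdrd7 and Brdt were lower (13.7%). The 8 became 5 without d9 SSEA1- replicate 1 or without d9 SSEA1+ replicate 3. At 5 of the 39 tested members, the share higher lay near that of all genes. Mov10l1 had no read in d9 SSEA1- cells and was at least 7.19-fold higher in SSEA1+ cells.

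At d12, 27 members were higher in SSEA1+ than in SSEA1- cells (18.0% of all tested genes) and Rec8 and Tdrd7 were lower (18.0%). The 27 were 14 meiosis, 7 piRNA and 6 other germ cell genes, and the members' median log2 difference was 2.47 with genes unread in SSEA1- cells at their bound, against 0.06 for all tested genes. Hsf2bp was at 0.547, 2.74 and 1.1 CPM in d12 SSEA1- cells and at 50.1, 32.1 and 22 CPM in d12 SSEA1+ cells, with no overlap (log2 fold change 4.56 ± 0.80, adjusted p = 5.3e-05). Tex14 differed by 4.51 ± 0.65 on the log2 scale (adjusted p = 6.1e-06), from 0.612, 0.71 and 0.471 CPM in SSEA1- to 20.9, 11.2 and 9.24 CPM in SSEA1+ cells. Pld6 and Brdt, not called at d12, passed with the replicate as a block, Pld6 higher (log2 fold change 1.44, adjusted p = 0.026) and Brdt lower (log2 fold change -1.21, adjusted p = 0.041). At the iPS stage 27 were higher in SSEA1+ cells (16.0%) and Tdrd7 and Tdrkh were lower (21.3%), and without iPS SSEA1- replicate 3 the numbers were 28 and 2. When only the 2 iPS groups were fitted, 17 were higher. The number lower was 1 at d12 without replicate 1 of either fraction, and 1 at the iPS stage without iPS SSEA1- replicate 1 or 2 or iPS SSEA1+ replicate 2 or 3. The median difference there was 2.27, against 0.06 for all tested genes, and 3.56 without iPS SSEA1- replicate 3, against 0.03. The change of the fractions' difference from d12 to the iPS stage was called for 0 members in either direction by edgeR (0.410% of all genes higher and 1.44% lower; 3 higher and 4 lower at an unadjusted p under 0.05; 1 higher and 0 lower by DESeq2, and 1 higher by edgeR without iPS SSEA1- replicate 3).

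**Figure D5:**
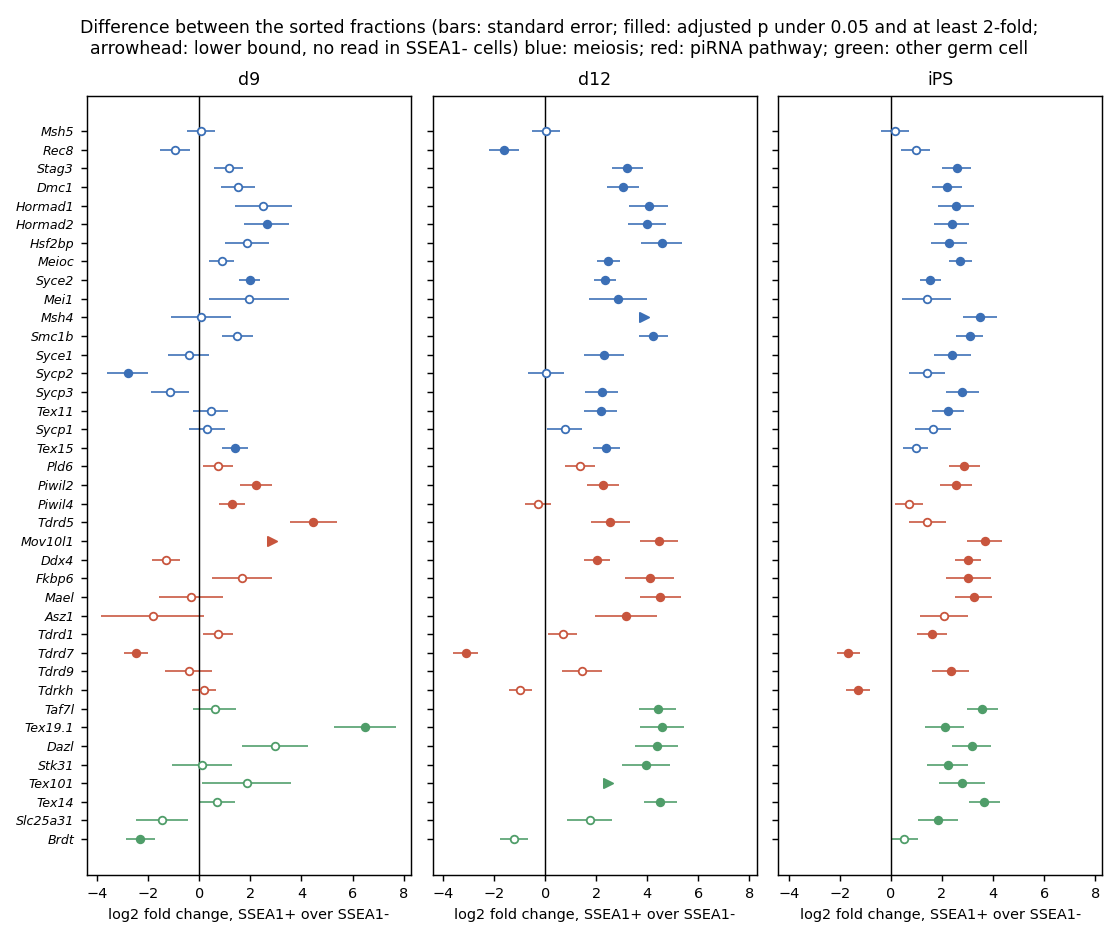
Log2 fold change of SSEA1+ over SSEA1- cells for the 39 tested members at d9, d12 and the iPS stage, with bars for the standard error, filled points for called genes and arrowheads for lower bounds of genes with no read in SSEA1- cells. At d12 most points lie to the right of 0, and Tdrd7 lies to the left at all 3 stages.

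The iPS SSEA1- fraction differed from d12 SSEA1- cells in 24 members that were higher (4.72% of all tested genes) and 2 that were lower, Rec8 and Piwil4 (2.50%). Without iPS SSEA1- replicate 3 the numbers were 6 and 3, and without d12 SSEA1- replicate 1 or replicate 3 the number higher was 10. When only the 2 groups compared were fitted, 1 member was higher. Same-numbered libraries of these groups deviated together. Tex19.1 was at 3.02, 3.32 and 44.5 CPM in iPS SSEA1- cells and Smc1b at 4.94, 5.25 and 35.7 CPM, with replicate 3 the highest for both. The same library was the highest of its group for Dazl (3.77, 2.63 and 21 CPM), Hormad1 (1.75, 5.25 and 15.3 CPM) and Stag3 (20, 14.2 and 55.9 CPM). It was the lowest for Tdrkh, at 31, 21.4 and 9.31 CPM, and for Rec8. The pluripotency sum moved with these values, at 174, 478 and 2870 CPM in replicates 1 to 3, and its part in the result was not tested.

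Genes of the same systems outside the 41 were counted from lists chosen by function, in iPS SSEA1+ cells against MEFs, a comparison in which 27.9% of all tested genes were higher and 22.5% lower. These lists were chosen with earlier results of these data known, so their counts are not independent support. Of 23 further meiosis genes tested, 18 were higher and 1 lower (0 without MEF replicate 2 or iPS SSEA1+ replicate 2). The smallest p was that of Cntd1, a crossover gene, at 0.128 ± 0.0647 CPM in MEFs and 7.06 ± 1.07 CPM in iPS SSEA1+ cells (mean ± SD, n = 3). Zcwpw1, a reader of the histone marks set at recombination hotspots, was higher as well (log2 fold change 2.98 ± 0.33, adjusted p = 2.4e-08). Of 14 further piRNA pathway genes tested, 11 were higher and 2 lower. Rnf17, a Tudor protein of germ cells, was higher (log2 fold change 6.48 ± 0.77, adjusted p = 8.6e-08), and Tdrd3, a Tudor protein expressed in many tissues, was lower (log2 fold change -1.45 ± 0.17, adjusted p = 1.0e-07). Of 17 primordial germ cell genes tested, 16 were higher. The smallest p was that of Lin28a, which blocks let-7 maturation, at 0.0697 ± 0.0615 CPM in MEFs and 177 ± 66.4 CPM in iPS SSEA1+ cells (mean ± SD, n = 3). Ifitm3, the exception, was not called (log2 fold change 0.01 ± 0.34, adjusted p = 0.99).

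Among 21 tested genes of complexes known to repress germline promoters, 8 were higher and 2 lower in iPS SSEA1+ cells than in MEFs, where 27.9% of all tested genes were higher and 22.5% lower. Their median log2 fold change was 0.70, against 0.22 for all tested genes. Pcgf6 and Mga, both of PRC1.6, had the smallest p and were higher, by 2.35 ± 0.19 on the log2 scale (adjusted p = 1.9e-10) and 1.76 ± 0.18 on the log2 scale (adjusted p = 5.4e-09). E2f6 and Max, named for their place in that complex after their values were seen, were not called, with log2 fold changes of -0.56 ± 0.24 (adjusted p = 0.049) and 0.19 ± 0.18 (adjusted p = 0.35). Among 16 tested genes of DNA methylation, 8 were higher and 3 lower, with a median of 0.99, beside the same 27.9% and 22.5% of all genes. Mbd2, a reader of methylated DNA, was lower (log2 fold change -2.25 ± 0.24, adjusted p = 1.9e-08), and Dnmt3b, a de novo methyltransferase, was higher (log2 fold change 4.33 ± 0.51, adjusted p = 6.0e-08).

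Markers of differentiated germ cells and gonads were also read, to see which cells besides those named could be present. In iPS SSEA1+ cells against MEFs, 27.9% of all tested genes were higher and 22.5% lower. Of 12 spermatid markers 4 passed the filter, with 1 higher (Ldhc) and 1 lower (Spaca1) in iPS SSEA1+ cells than in MEFs. Their summed level was 4.42, 5.76 and 4.59 CPM in MEFs and 12.5, 8.41 and 5.93 CPM in iPS SSEA1+ cells, and Prm1, Prm2, Tnp1, Tnp2 and Akap4 were at or near 0 in all groups. Of 11 oocyte markers 4 passed and 3 were higher, Ooep, Padi6 and Zp3, with sums of 0.465 to 1.1 CPM in MEFs and 123 to 217 CPM in iPS SSEA1+ cells. Ooep, a gene of the oocyte and early embryo, made up most of that sum, at a mean of 175 CPM. Padi6 and Zp3, at means of 1.75 and 1 CPM there, were at 0 CPM in MEFs, so neither could have been called lower. Of 12 macrophage markers 2 were higher and 7 lower, with uneven sums of 6.33, 272 and 38.7 CPM in MEFs and 230, 244 and 188 CPM in iPS SSEA1+ cells. Laptm5 and Cd68, at means of 151 and 67 CPM, made up nearly all of the latter, and each of the other 10 was at a mean of 0.625 CPM or less there. Between the fractions, 5 macrophage markers were lower in SSEA1+ cells at d9 (13.7% of all tested genes) and 1 at d12 (18.0%). At the iPS stage 7 were lower (21.3%) and 2 higher (16.0%). The macrophage sums were 535, 725 and 538 CPM in d12 SSEA1- cells and 47.8, 706 and 88.5 CPM in iPS SSEA1- cells. Of 12 markers of gonadal somatic cells 7 passed and 3 were higher (1 without MEF replicate 1). The part of such cells in the members' levels was not tested. The pluripotency genes rose with the members only in part. All 12 were higher in iPS SSEA1+ cells than in MEFs and in d12 SSEA1+ than in d12 SSEA1- cells. In SSEA1+ cells 6 of the 12 were higher from d3 to d6, against 2 of the 39 tested members and 3.21% of all tested genes. From d6 to d9 the numbers were 6 of 12 and 1 of 39 (0.998%), and from d9 to d12 they were 8 of 12 and 23 of 39 (5.37%). From d12 to the iPS stage 0 of the 12 and 18 of the 39 members were called higher (3.74%), with median log2 fold changes of 0.88 and 2.10. The 18 became 8 to 16 with single libraries left out.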

How the data were processed

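Libraries were made from poly-A RNA extracted with a micro-column kit, with a directional preparation kit, per the labels' protocols. The authors deposited 1 table of raw read counts per gene for each of the 33 libraries. Per the submitters' processing notes, STAR 2.3.0, Picard 1.100, HTSeq 0.6.0 and the mm9 build were used, with the annotation release and the tools' roles not given in the sources used here. Symbols, exon lengths and overlaps came from GENCODE M21 annotation on GRCm38, with no gene coordinates taken from it. Rows that name no gene were left out; reads in no gene came to 4.42% to 15.51% and ambiguous reads to 2.41% to 3.15% per library.

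Counts were fitted with edgeR 4.0.16 in R 4.3.3 (TMM scaling, filterByExpr, robust quasi-likelihood test) in 1 model of 11 groups with 22 residual degrees of freedom, without a replicate block. The fit was tried on simulated counts of 2 groups with the same spread for every gene. That setting does not cover the 11 groups, the uneven iPS SSEA1- libraries or genes with almost no read in MEFs. Called genes had an adjusted p under 0.05 over 17326 tested genes and at least a 2-fold change. The standard error of a log2 fold change was taken from the test statistic. For genes with 1 to 3 reads in the reference group, ratios of summed counts are given with exact 95% intervals. DESeq2 1.42.0 was an alternative, as were other scaling, no filter, only the groups compared and leaving out single libraries. Same-numbered libraries deviated together (all correlations above 0.1) between the fractions at d3, d6, d9 and d12, from one SSEA1+ day to the next up to d12, between the iPS and d12 SSEA1- groups, and between MEFs and d3, d6 and d12 SSEA1+ cells. The labels give only the number. Values per library are given for the members with the highest levels in each class, the early risers and those called lower, and for other members chosen after their values were seen. The members and all gene lists were chosen with earlier results of these data known.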

Additional observations from a re-analysis of the deposited data

How the results depend on the processing

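Bulk levels of genes near 1 read per library, such as Spo11, Tdrd6 and Mei1, are limited by depth, and the numbers of called members at d3 and d6 are small. The numbers of members called higher or lower stayed within 1.5 times of the values above except as follows, and the causes were not tested. With DESeq2's size factors in edgeR, 2 were higher from d6 to d9. Without the filter, 1 was lower in d12 and 1 in iPS SSEA1+ cells than in MEFs. With the replicate block, the fractions differed at d6 in 3 higher and 4 lower, 1 was lower from d3 to d6 and 4 were higher from d6 to d9; the block moved no other number of calls by over 1.5 times. With only the groups compared, 1 was lower in d9 SSEA1- cells and 20 were higher in iPS SSEA1- cells than in MEFs. In that fit the fractions differed in 0 lower at d3, 0 higher and 1 lower at d6, 4 lower at d12 and 17 higher at the iPS stage, 1 was higher from d3 to d6 and 1 from d12 to iPS SSEA1- cells. With DESeq2, 3 were higher and 4 lower between the d6 fractions, 4 were higher from d6 to d9 and 1 had a larger fraction difference at the iPS stage than at d12.

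Leaving out single libraries gave these ranges. Against MEFs, 1 to 2 were lower in d3 SSEA1-, 4 to 9 higher in d6 SSEA1-, 1 to 2 lower in d9 SSEA1- and 0 to 2 lower in d12 SSEA1- cells. In SSEA1+ cells 11 to 16 were higher at d9, 1 to 2 lower at d12 and 1 to 2 lower at the iPS stage. Between the fractions 0 to 1 were lower at d3, 0 to 2 higher and 1 to 4 lower at d6, 5 to 9 higher at d9, 1 to 3 lower at d12 and 1 to 2 lower at the iPS stage, and 0 to 1 had a larger difference at the iPS stage than at d12. In SSEA1+ steps 0 to 3 were higher and 0 to 1 lower from d3 to d6, 0 to 3 higher from d6 to d9, and 8 to 16 higher and 0 to 1 lower from d12 to the iPS stage. From d12 to iPS SSEA1- cells 6 to 25 were higher. Pld6 changed sign in that comparison without iPS SSEA1- replicate 3, from 0.05 to -1.86 (range over single libraries left out, -1.86 to 0.45). The added comparison of iPS with d12 SSEA1- cells was chosen after seeing the data.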
